A study of Homo sapiens with 18 samples.

Results

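The 100 genes described here were close to silent in SJSA-1 cells under the solvent DMSO and present under Nutlin. They were chosen by their measured DMSO and Nutlin levels from 23368 genes in the tables, in CPM (counts of a gene per 1000000 counts in its library). A gene qualified when its DMSO mean lay under 0.2 CPM and each of the 3 Nutlin libraries held 10 counts or more, and 566 genes did. These were ranked by L(Nutlin) minus L(DMSO), where L is the log2 of the group mean plus 0.1 CPM, and the first 100 were kept. The Nutlin and DMSO libraries therefore chose the members, and the values of that comparison are given as a description without a test.

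SJSA-1 is an established human osteosarcoma cell line, described by the study as carrying amplified MDM2 and CDK4. RNA was sequenced from 18 libraries in 6 groups of 3 replicates, all from this line. The groups were DMSO alone (DMSO), 20 µM Nutlin for 6 h (Nutlin), 10 µM PD0332991 (Palbociclib) for 24 h followed by its removal (PD24), 10 µM PD0332991 for 30 h without removal (PD30), and the last 2 with 20 µM Nutlin during the final 6 h (N+PD24 and N+PD30). The study asked whether CDK4 activity is needed for the genes that Nutlin induces. It used removal of the drug to reactivate CDK4, whose activity was not measured in these libraries.

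p53 is a transcription factor that MDM2 binds and marks for degradation. Nutlin occupies the p53-binding pocket of MDM2, so that p53 accumulates and transcribes its target genes, among them CDKN1A, which encodes the cell cycle inhibitor p21, and MDM2 itself. CDK4 and CDK6 phosphorylate the retinoblastoma protein and so allow entry into S phase, and Palbociclib inhibits both kinases. p53 recognizes DNA through pairs of half-sites of 10 bases, and many of its targets are normally restricted to particular tissues.

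Promoters with an exact match to the p53 half-site consensus are the sequence feature closest to the treatment, and 4 of them are shown because the results return to these genes. The sequences are those of RefSeq on GRCh38.p14, from 250 bases before to 50 after each gene start, and capitals mark the exact matches on either strand. The first is PURPL (listed as LOC643401), a long noncoding RNA (chr5:27472042-27472341, plus strand). The second is PADI4, a peptidylarginine deiminase (chr1:17307947-17308246, plus strand). The third is BLNK, a B cell adaptor protein (chr10:96271520-96271819, minus strand). The fourth is LCE1E, a protein of the cornified layer of skin (chr1:152786007-152786306, plus strand).
PURPL: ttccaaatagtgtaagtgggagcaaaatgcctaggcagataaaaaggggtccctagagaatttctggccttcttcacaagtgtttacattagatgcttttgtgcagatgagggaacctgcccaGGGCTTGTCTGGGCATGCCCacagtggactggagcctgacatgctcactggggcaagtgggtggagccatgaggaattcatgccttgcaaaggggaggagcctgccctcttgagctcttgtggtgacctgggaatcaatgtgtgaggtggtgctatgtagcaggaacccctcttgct
PADI4: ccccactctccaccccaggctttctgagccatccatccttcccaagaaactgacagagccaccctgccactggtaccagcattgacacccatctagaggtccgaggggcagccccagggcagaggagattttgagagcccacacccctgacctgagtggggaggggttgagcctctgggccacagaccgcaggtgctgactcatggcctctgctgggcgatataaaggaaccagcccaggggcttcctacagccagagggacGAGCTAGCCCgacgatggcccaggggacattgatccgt
BLNK: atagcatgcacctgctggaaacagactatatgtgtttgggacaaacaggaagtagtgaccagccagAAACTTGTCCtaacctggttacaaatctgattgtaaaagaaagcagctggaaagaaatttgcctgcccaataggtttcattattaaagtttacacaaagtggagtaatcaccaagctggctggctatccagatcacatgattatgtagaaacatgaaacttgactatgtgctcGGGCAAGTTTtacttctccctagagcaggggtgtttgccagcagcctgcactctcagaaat
LCE1E: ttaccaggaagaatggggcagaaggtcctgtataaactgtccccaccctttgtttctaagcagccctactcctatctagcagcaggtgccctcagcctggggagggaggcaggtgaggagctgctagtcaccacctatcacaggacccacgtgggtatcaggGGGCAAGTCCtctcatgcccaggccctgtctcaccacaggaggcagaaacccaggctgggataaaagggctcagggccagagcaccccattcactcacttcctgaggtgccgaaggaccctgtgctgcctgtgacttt
Of the 100 genes, 70 were matched to a RefSeq promoter. At least 1 half-site stood in 8 of these 70 (11.4%), against 1786 of 27305 promoters of the whole table (6.54%). Besides the 4 genes shown these were ANKUB1, LDHAL6B, MLN and TREML1. A pair of half-sites separated by 0 to 13 bases stood in 1 of the 70, PURPL, whose matches began 127 and 117 bases before the start, and in 8 of the 27305 (0.0293%). BLNK held 2 half-sites that were too far apart to count as a pair, beginning 184 and 11 bases before its start. Within 5 kb on both sides of the outermost start of each GENCODE gene model on GRCh37, which need not be the RefSeq start and did not take in the pair of PURPL, such a pair stood in 0 of 95 placed members and in 1.36% of all placed genes. A match describes letters only, and the absence of one says nothing about binding.

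The libraries held 12704845 to 40231041 counts (median 29608936), so that 1 read was worth 0.0249 to 0.0787 CPM. MDM2 rose from a mean of 2589 CPM in DMSO to 22914 CPM in Nutlin, and CDKN1A from 184.1 to 3984 CPM. In N+PD30 MDM2 stood at 7293 CPM and CDKN1A at 2377 CPM, and in N+PD24 they stood at 11183 and 4648 CPM. Of 10 osteoblast and osteosarcoma markers, 7 were at 1 CPM or more in each group, whereas the late markers BGLAP, SP7 and IBSP had group means of 0 to 0.131 CPM. A list of 18 S phase and E2F target genes summed to 3459 to 3671 CPM in DMSO, 2121 to 2309 in Nutlin, 294 to 432 in PD24, 207 to 252 in PD30, 298 to 321 in N+PD24 and 249 to 294 in N+PD30. Of 10 epithelial markers, 3 to 5 reached 1 CPM in each group, and they summed to 195 to 268 CPM in DMSO, 163 to 191 in Nutlin, 149 to 249.5 in PD24, 128 to 162 in PD30, 120.1 to 170.5 in N+PD24 and 115 to 184 in N+PD30. Most of that sum was KRT18 (group means of 107 to 211 CPM). KRT8, CDH1 and CLDN4 were higher in Nutlin than in DMSO (25.6 against 11.0, 1.21 against 0.415 and 1.68 against 0.625 CPM). KRT18 and ESRP1 were lower in Nutlin (141 against 211 and 1.94 against 3.02 CPM). EPCAM, KRT19 and GRHL2 had means under 1 CPM in each group, and KRT5 and KRT14 had group means of 0 to 0.229 CPM. Of 8 blood markers 3 reached 1 CPM in each group (CD14, LYZ and CD34), summing with the rest to 11.2 to 20.3 CPM in DMSO, 16.2 to 17.8 in Nutlin, 6.98 to 14.8 in PD24, 6.73 to 11.2 in PD30, 9.75 to 13.1 in N+PD24 and 7.26 to 18.02 in N+PD30, while the T cell marker CD3E had group means of 0 to 0.018 CPM. Of 8 neural markers, 6 to 8 reached 1 CPM in each group. They summed to 213 to 220 CPM in DMSO, 311 to 397 in Nutlin, 204 to 234 in PD24, 219 to 255 in PD30, 327 to 421 in N+PD24 and 274 to 343 in N+PD30. NEFL had the largest rise from DMSO to Nutlin (38.5 to 135 CPM), and SYT1, TUBB3, RBFOX3 and GFAP also had higher means. SNAP25 (11.5 to 10.9 CPM), STMN2 (16.8 to 13.6) and MAP2 (9.34 to 9.02) had lower means in Nutlin. The part of any of these in the results below was not tested, and fewer cells that express a gene cannot be told apart from less RNA of it per cell.

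The members were mostly genes known from tissues other than bone. The rule required near silence in an osteosarcoma line, so it favours such genes. RefSeq records 85 of them as protein coding, against 80.5% of all rows, 9 as long noncoding RNAs (6.98% of all rows) and 4 as transcribed pseudogenes, and 2 had no record. By textbook role, assigned after their values were seen and covering 74 members, 8 belong to skin and other epithelia, 12 to immune and blood cells, 18 to liver, gut and pancreas, 5 to muscle, heart and limb, 11 to nerve and eye, and 7 to testis and cilia, and 13 are noncoding RNAs or pseudogenes. Roles were not assigned to the other genes that met the limits of the rule, so these counts have no background. Only PADI4 was among the 136 p53 targets compiled for comparison. That list is not complete, so absence from it does not show that a member is no p53 target.

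The silence under DMSO was measured on few reads. The median DMSO mean was 0.0328 CPM, 19 members had no count in any DMSO library, and 55 had at most 3 counts over all 3. Under Nutlin the members ranged from 0.935 to 15.8 CPM (median 2.18), and 95 reached a mean of 1 CPM. Summed over the members, the 3 DMSO libraries held 4.51, 4.09 and 4.85 CPM and the 3 Nutlin libraries 274, 315 and 297 CPM. The score that ranked the genes ran from 3.37 to 6.90 (median 4.01). For the 19 without a DMSO count only a lower bound can be given, from the summed counts against a floor of 3 counts over the group. LAD1, an anchoring filament protein of epithelial basement membranes, was at least 115-fold higher in Nutlin, and PKP1, a plakophilin of desmosomes, at least 95.2-fold.

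TRIM55, a RING finger protein of the muscle sarcomere, led the ranking. Its DMSO libraries held 0, 0.0347 and 0.0647 CPM, and its Nutlin libraries 16.1, 19.2 and 12.2 CPM. CLCA2, a membrane protein of stratified epithelia, held 0, 0 and 0.0323 CPM in DMSO and 14.7, 10.9 and 7.11 CPM in Nutlin. TBX4, a T-box factor of hindlimb development, held 0.121, 0.0347 and 0.0647 CPM in DMSO and 13.3, 14.8 and 12.8 CPM in Nutlin. In all 3 genes each Nutlin library lay far above each DMSO library, in the groups that chose them. The next by Nutlin level were FCGBP, a mucus protein of the gut (9.25 CPM), KRT78, an epithelial keratin (8.81 CPM), the complement component C9 (7.99 CPM) and TREM2, a receptor of myeloid cells (6.88 CPM). The further members with a Nutlin mean among the highest 20 were KIAA1045, SLC2A5, PURPL, ZNF605, SHISA7, FBXW10, HGFAC, CDC42BPG, ZNF300P1, CATSPERD, DNAH12, LAD1 and SLFN14.

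**Figure D1:**
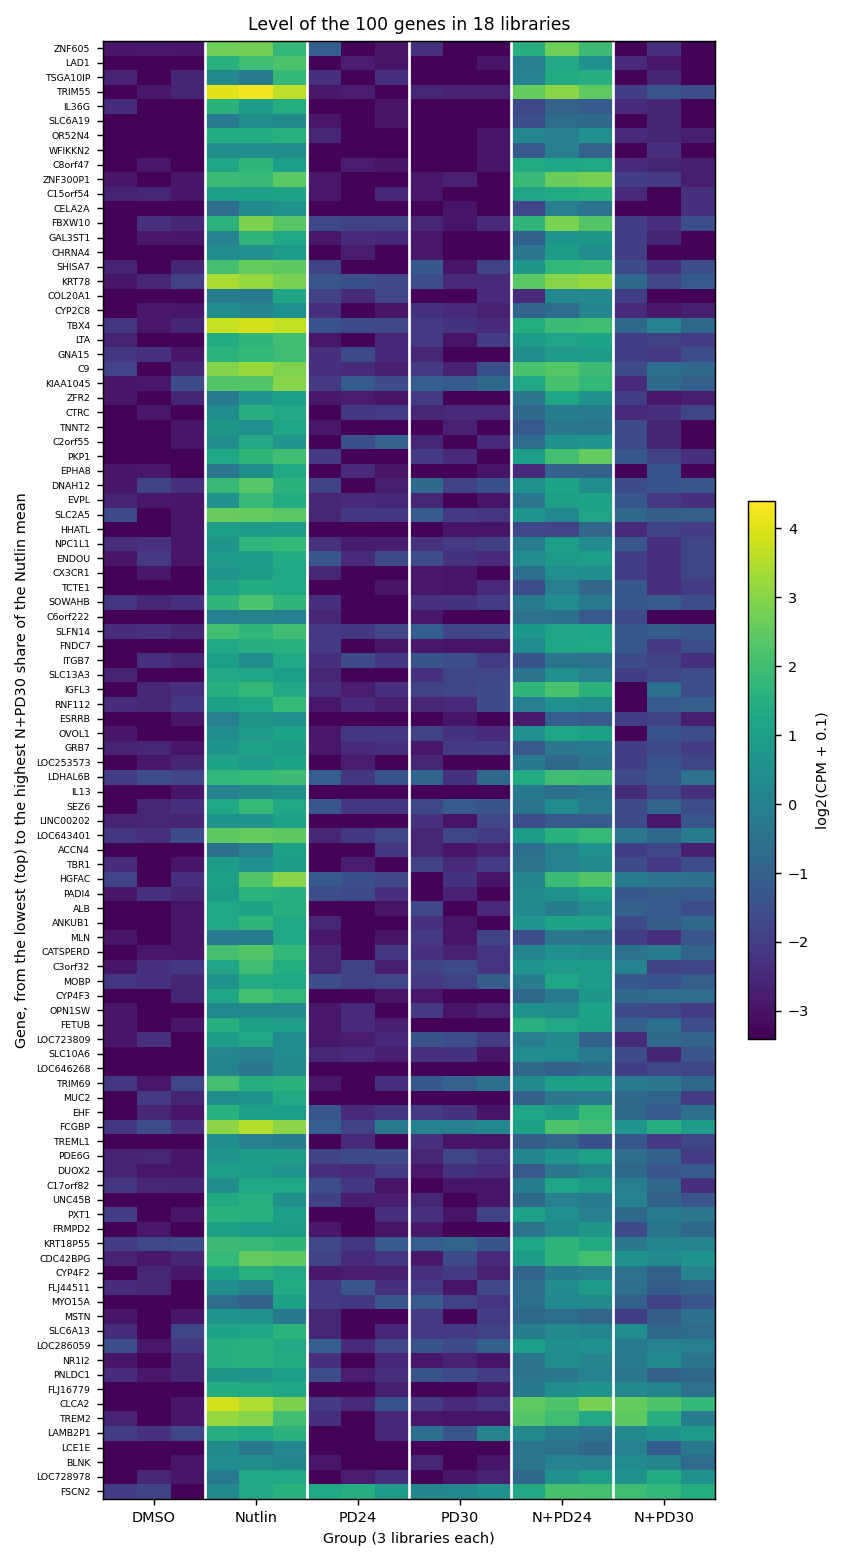
Level of each of the 100 genes (rows) in the 18 libraries (columns, 3 per group) as log2(CPM + 0.1), ordered from the lowest (top) to the highest N+PD30 share of the Nutlin mean. The Nutlin and N+PD24 columns are the brightest, the DMSO, PD24 and PD30 columns are mostly dark, with FSCN2 at the bottom the clearest exception, and the N+PD30 columns brighten only toward the bottom rows.

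With Palbociclib kept throughout, most members stood far below their Nutlin level. In N+PD30 their median mean was 0.253 CPM, 42 stayed under 0.2 CPM and 7 reached 1 CPM. Expressed as a share of the Nutlin mean, the median member stood at 10.8% (interquartile range 5.83 to 21.4%, range 0.619 to 153%), and the medians in the 3 libraries were 12.6%, 11.5% and 9.24%. All 3 N+PD30 libraries lay below all 3 Nutlin libraries in 95 of the 100 members, against 25.9% of all genes with a count in these libraries, and above them in 0 members, against 23.2%. The 5 members with overlapping groups were TREM2, LOC728978, BLNK, LCE1E and FSCN2. Under 25% of the Nutlin mean stood 79 members, against 5.65% of the 15292 genes with 10 counts or more in every Nutlin library, whose median was 102.1%.

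With Palbociclib removed before Nutlin, the members reached a median of 1.18 CPM, and 60 reached 1 CPM. The median share of the Nutlin mean in N+PD24 was 54.6% (interquartile range 39.9 to 73.3%, range 13.9 to 169%), and the medians in the 3 libraries were 37.6%, 60.5% and 59.0%, so that the first library stood lower than the other 2. All 3 N+PD24 libraries lay below all 3 Nutlin libraries in 61 members (22.6% of all genes) and above them in 2 (16.5% of all genes), the noncoding C15orf54 and OPN1SW, the blue cone opsin. Leaving out any 1 N+PD24 or Nutlin library moved the count below to between 62 and 70. Such a count cannot fall when a library is left out. Leaving out 1 N+PD24 library moved the median share to between 50.0 and 57.1%. Of the 100 genes, 96 had a higher mean in N+PD24 than in N+PD30, and 43 combined a share under 25% in N+PD30 with one over 50% in N+PD24. Among 39 genes that rose by a score at least as large from a DMSO mean of 0.2 CPM or more, the median shares were 31.9% in N+PD30 and 67.3% in N+PD24. Among 1546 other genes with a Nutlin to DMSO difference over 1 on the log2 scale they were 46.1% and 76.3%. These shares use the Nutlin libraries that chose the members and were not tested.

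**Figure D2:**
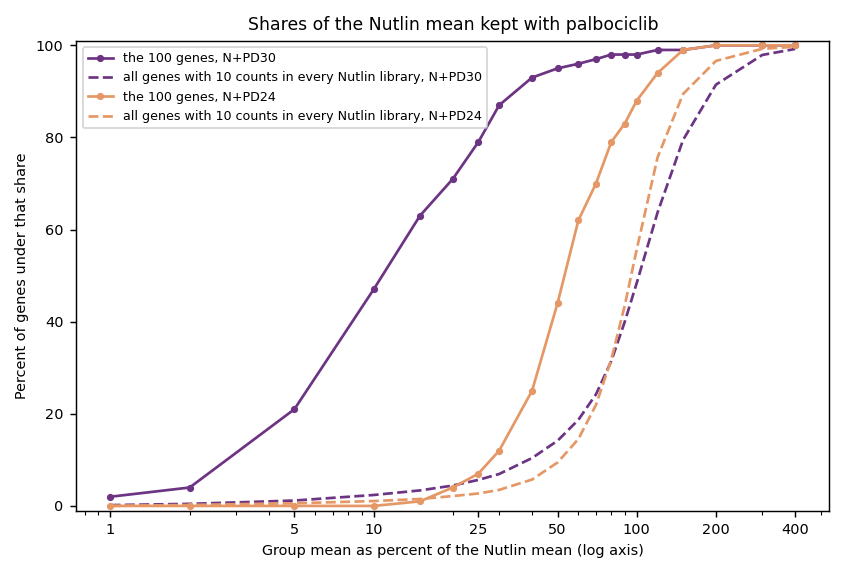
Percent of genes (vertical axis) whose group mean lies under a given percent of their Nutlin mean (horizontal log axis), for the 100 genes (solid) and for the 15292 genes with 10 counts or more in every Nutlin library (dashed), in N+PD30 (purple) and N+PD24 (orange). At 25% of the Nutlin mean, 79 of the 100 genes lie under the mark in N+PD30 and 7 in N+PD24, against 5.65% and 2.7% of the genes in the dashed lines.

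The Nutlin response in cells that had received Palbociclib could be tested, because none of these 12 libraries took part in choosing the members. The members did pass the filter on low counts through their Nutlin libraries, which the rule used. After removal (N+PD24 against PD24), 98 of the 100 members rose and 0 fell, against 8.41% of the 16461 genes tested that rose and 8.95% that fell (limma, Benjamini-Hochberg adjusted p under 0.05 and log2 difference over 1). At an unadjusted p under 0.05 with no fold limit, 99 members were higher and 0 lower. This looser count was not made over all genes, here or below, so it has no background. In PD24, 87 members stood under 0.2 CPM, so few of them could be called lower, and the 0 carries little weight. The median difference was 2.99 on the log2(CPM + 0.1) scale over the members and -0.08 over all genes. The 2 members that did not pass were COL20A1, a collagen chain, and FSCN2. edgeR on the recovered reads called 99 higher, and a pseudocount of 1 in place of 0.1 called 54. The tested shares over all genes, here and below, are those of the main fits and not of such alternatives.

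TRIM55 had the largest of these differences. Its PD24 libraries held 0.0339, 0.0422 and 0 CPM and its N+PD24 libraries 5.78, 7.93 and 5.38 CPM, a difference of 5.68 ± 0.27 (SE, n = 3 per group, limma adjusted p = 1.05e-05). ZNF300P1, a transcribed pseudogene of a zinc finger gene, held 0.0339, 0 and 0 CPM in PD24 and 3.57, 6.06 and 6.82 CPM in N+PD24, a difference of 5.61 ± 0.31 (SE, limma adjusted p = 1.33e-05). The further members among the 10 largest were PKP1, C9, TREM2, ZNF605, CLCA2, KRT78, C8orf47 and SHISA7, with differences between 4.31 and 4.76. In each of these 10 genes every N+PD24 library lay above every PD24 library.

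With Palbociclib kept (N+PD30 against PD30), 34 members rose and 0 fell, against 3.06% of 16461 genes that rose and 0.48% that fell (edgeR quasi-likelihood test, Benjamini-Hochberg adjusted p under 0.05 and log2 fold change over 1). At an unadjusted p under 0.05, 49 were higher and 0 lower, and the fitted log2 fold change was positive in 96. In PD30, 84 members stood under 0.2 CPM, so few of them could be called lower, and the 0 carries little weight. The median log2 fold change was 1.82 over the members and -0.003 over all genes. The count fell to 15 without N+PD30 replicate 2 and to 16 without PD30 replicate 1, and DESeq2 called 9 of the 9 members to which it gave an adjusted p. These are low counts, since the median member had 7.5 reads over the 3 PD30 libraries and 16.5 over the 3 N+PD30 libraries, and 38 members had at most 3 reads in PD30. The 34 called members had a median of 39.5 reads in N+PD30 and a median share of 23.3% of the Nutlin mean, and the other 66 had 11 reads and 7.72%. Of the 34, 33 also rose after removal. The count after removal came from limma and this one from edgeR. The shallowest library, with 12704845 counts, was N+PD30 replicate 1, so the counts of the schedules were not made on equal terms.

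CLCA2 had the lowest adjusted p with Palbociclib kept. Its PD30 libraries held 0.138, 0.0834 and 0.114 CPM and its N+PD30 libraries 5.75, 4.67 and 3.34 CPM, a log2 fold change of 5.39 ± 0.35 (SE, n = 3 per group, edgeR adjusted p = 5.28e-05). LCE1E had no count in any PD30 library and 0.945, 0.370 and 0.726 CPM in N+PD30, at least 20.1-fold higher against a floor of 3 counts (edgeR adjusted p = 0.00747). FETUB, a plasma fetuin, and MUC2, the main gut mucin, likewise had no count in PD30 and were at least 14.3-fold and 11.6-fold higher. TREM2 had 3 reads over the PD30 libraries and 165 over the N+PD30 libraries, a ratio of 87.3 with a 95% counting interval of 29.4 to 428 (edgeR adjusted p = 0.00375). Its 3 N+PD30 libraries were far apart, at 5.35, 2.69 and 0.823 CPM. The noncoding FLJ16779 had 1 read in PD30 and 57 in N+PD30 (ratio 90.5, counting interval 15.6 to 3637), and the cytochrome P450 gene CYP4F3 had 1 and 33 (ratio 52.4, interval 8.77 to 2132). The other genes among the 10 largest fitted changes were LOC728978, LOC646268 and FRMPD2. The intervals cover counting error only.

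Palbociclib schedules were compared directly under Nutlin (N+PD24 against N+PD30). Of the 100 members, 68 were higher after removal and 0 lower, against 7.13% of all genes that were higher and 6.57% that were lower (limma, same thresholds). At an unadjusted p under 0.05, 76 were higher and 1 lower. The median difference was 1.84 on the log2(CPM + 0.1) scale over the members and -0.08 over all genes. edgeR on the recovered reads called 75 higher and 0 lower, and a pseudocount of 1 called 32 higher.

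ZNF605, a zinc finger protein, differed the most. Its N+PD24 libraries held 2.71, 6.28 and 3.76 CPM and its N+PD30 libraries 0, 0.101 and 0 CPM, a difference of 5.02 ± 0.40 (SE, n = 3 per group, limma adjusted p = 0.000178), and its Nutlin libraries held 6.29, 6.59 and 3.39 CPM. KRT78 held 5.25, 7.82 and 9.06 CPM in N+PD24 and 0.472, 0.202 and 0.339 CPM in N+PD30, a difference of 4.11 ± 0.31 (SE, limma adjusted p = 0.000138). PKP1 held 1.84, 4.06 and 5.67 CPM in N+PD24 and 0.315, 0.168 and 0.0968 CPM in N+PD30, a difference of 3.69 ± 0.43 (SE, limma adjusted p = 0.000544). In these 3 genes the groups did not overlap, and N+PD24 reached the range of the Nutlin libraries. ZNF300P1, TRIM55, FBXW10, TSGA10IP, C15orf54, C8orf47 and IGFL3 completed the 10 largest, with differences between 3.64 and 4.70.

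Whether Nutlin acted differently under the schedules was tested by the interaction of Nutlin with the schedule over the 12 libraries. The Nutlin difference was larger after removal in 59 members and smaller in 0, against 3.83% and 4.88% of all genes (limma, same thresholds). At an unadjusted p under 0.05 the counts were 74 and 0, and the median interaction was 1.88 on the log2 scale over the members and -0.03 over all genes. The number called rested on replicate 2, since 0 members and 0 of all genes were called without it, with 61 members larger and 0 smaller at an unadjusted p under 0.05. Without replicate 3 it was 34 members, and edgeR on the recovered reads also called 34 larger and 0 smaller. ZNF300P1 had the largest interaction (4.91 ± 0.47, SE, limma adjusted p = 0.000262), followed by TRIM55 (4.65 ± 0.38, SE, limma adjusted p = 0.000163).

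The p53 targets compiled for comparison gave other counts in the same fits. Of 136 on the list, 128 were tested. Of these, 69 rose and 0 fell with Palbociclib kept (edgeR, against 3.06% and 0.48% of all genes). After removal, 59 rose and 0 fell (limma, against 8.41% and 8.95%). Between N+PD24 and N+PD30, 11 were higher after removal and 7 lower (7.13% and 6.57% of all genes), with a median difference of -0.14. In the interaction 3 were larger and 5 smaller (3.83% and 4.88% of all genes). Single targets could differ from these counts. The interaction was 1.34 ± 0.18 for CDKN1A and 0.55 ± 0.24 for MDM2 (SE, limma adjusted p of 0.000807 and 0.143). By PCR, the study reported that MDM2, p21 and PIG3 mRNA recovered when Palbociclib was removed. The 2 sets of genes share PADI4 and were not tested against each other. Members outside the list may still be p53 targets.

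A few members kept much of their Nutlin level while Palbociclib was present. LOC728978, the antisense RNA UNC5B-AS1, stood at 101% ± 37.3 (SD, n = 3) of its Nutlin mean in N+PD30 and at 70.2% ± 39.6 in N+PD24. BLNK stood at 77.5% ± 28.7 and 72.6% ± 11.4, and LCE1E at 69.2% ± 29.5 and 60.7% ± 11.8. For these 3 the difference between N+PD24 and N+PD30 was -0.61 ± 0.44, -0.03 ± 0.32 and -0.10 ± 0.35 on the log2(CPM + 0.1) scale (SE, limma adjusted p of 0.312, 0.946 and 0.847), which does not show that the levels were equal. CLCA2 (42.0% ± 11.0 and 52.1% ± 10.5) and TREM2 (42.9% ± 33.1 and 53.6% ± 17.9) followed, with differences of 0.32 ± 0.24 and 0.59 ± 0.55 (SE, limma adjusted p of 0.339 and 0.436). LAMB2P1, FLJ16779, PNLDC1 and NR1I2 completed the highest 10 shares in N+PD30 together with FSCN2. At the other end ZNF605 kept 0.619% ± 1.07 in N+PD30, LAD1 0.998% ± 1.05, TSGA10IP 1.27% ± 2.19 and TRIM55 1.48% ± 0.46, followed by IL36G, SLC6A19, OR52N4, WFIKKN2, C8orf47 and ZNF300P1 at up to 2.71%.

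Removal did not return all members to the same extent. The highest shares in N+PD24 belonged to FSCN2 (169%), OPN1SW (144%), ZNF300P1 (131%), C15orf54 (127%), PKP1 (124%), IGFL3 (123%), TSGA10IP (117%), EHF (112%), FETUB (110%) and OVOL1 (110%). The lowest belonged to the interleukin IL36G (13.9%), HHATL (16.6%), LINC00202 (19.0%), ESRRB (19.9%), EPHA8 (20.9%), TCTE1 (23.0%), TBX4 (24.7%), SOWAHB (25.7%), SLC2A5 (28.2%) and CATSPERD (29.2%). TBX4 thus stood at 2.58, 3.68 and 3.83 CPM in N+PD24, all below its Nutlin libraries, and at 0.472, 0.941 and 0.484 CPM in N+PD30.

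By role, the 8 genes of skin and other epithelia had a median share of 73.1% in N+PD24 and 8.77% in N+PD30, and 6 of them were higher in N+PD24 than in N+PD30. They include the transcription factors OVOL1 and EHF, the desmosomal PKP1 and the envelope protein EVPL, which held 0.315, 0.134 and 0.0968 CPM in N+PD30 and 0.697, 1.89 and 2.09 CPM in N+PD24. For the 12 immune and blood genes, among them the cytokines LTA and IL13 and the chemokine receptor CX3CR1, the medians were 54.1% and 9.03%, and 9 were higher in N+PD24. For the 18 genes of liver, gut and pancreas, among them ALB, which encodes serum albumin, the xenobiotic receptor NR1I2 and the digestive protease CTRC, they were 41.9% and 14%, and 11 were higher. For the 5 of muscle, heart and limb, with TRIM55, TBX4, the troponin TNNT2, the chaperone UNC45B and the muscle growth inhibitor MSTN, they were 34.1% and 5.93%, and 3 were higher. For the 11 of nerve and eye they were 74.5% and 12.8% (8 higher), for the 7 of testis and cilia 47.6% and 11.1% (3 higher), and for the 13 noncoding RNAs and pseudogenes 49.7% and 19.6% (6 higher). The roles were assigned after the values were seen, so these medians are a description and the groups were not compared by a test.

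Palbociclib alone left most members near silent. The median mean was 0.0548 CPM in PD24 and 0.0755 CPM in PD30, and 87 and 84 members stayed under 0.2 CPM. Summed over the members the PD24 libraries held 11.6, 9.06 and 10.3 CPM and the PD30 libraries 13.1, 9.90 and 12.7 CPM. All 3 PD30 libraries lay above all 3 DMSO libraries in 25 members (23.5% of all genes) and below in 1 (23.1%), and all 3 PD24 libraries lay above in 21 (19.1%) and below in 2 (21.9%), so that the counts above were near those of all genes. The DMSO libraries were chosen to be low, and no test was made. FSCN2, a retinal fascin that bundles actin, and FCGBP had the highest means in both groups. FCGBP held 0.121, 0.243 and 0.097 CPM in DMSO, 0.373, 0.169 and 0.795 CPM in PD24 and 0.930, 0.890 and 1.08 CPM in PD30, so that PD30 lay above DMSO and PD24 overlapped it. For FSCN2 both schedules lay above DMSO. Its DMSO libraries held 0.151, 0.173 and 0 CPM, its PD24 libraries 2.31, 2.66 and 1.67 CPM and its PD30 libraries 0.999, 1.08 and 1.36 CPM. Its Nutlin libraries (1.15, 2.36 and 2.87 CPM) overlapped those of PD24, and N+PD24 (2.38, 4.30 and 4.08 CPM) overlapped N+PD30 (3.86, 3.29 and 2.61 CPM).

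Between PD24 and PD30, 2 members were higher and 4 lower after removal, against 3.99% of all genes higher and 3.38% lower (edgeR, same thresholds). Both counts were near those of all genes, so the members did not stand apart here. HGFAC, the activator of hepatocyte growth factor, held 0.339, 0.253 and 0.199 CPM in PD24 and 0, 0.111 and 0.0284 CPM in PD30, and PADI4 held 0.238, 0.211 and 0.0994 CPM and 0, 0.0556 and 0 CPM (edgeR adjusted p of 0.0425 and 0.047). LAMB2P1, a pseudogene of laminin beta 2, held 0, 0 and 0.0746 CPM in PD24 and 0.585, 0.306 and 0.965 CPM in PD30, and TRIM69, a RING finger protein, held 0.0339, 0 and 0.0994 CPM and 0.310, 0.417 and 0.596 CPM (edgeR adjusted p of 0.00559 and 0.00894). The other 2 lower members were TBR1, a T-box factor of the cortex, and the noncoding LOC723809. With the replicate number as a block these 2 did not pass (edgeR adjusted p of 0.054 and 0.0536). Across the alternatives, LAMB2P1 and TRIM69 stayed past the threshold in 11 of 11 and HGFAC and PADI4 in 6 of 11. LOC723809 did so in 3 of 11 and TBR1 in 3 of 10. Leaving out 1 library left 0 to 4 higher and 2 to 3 lower members, with 0 higher without PD24 replicate 2 or without PD30 replicate 1 (6 and 9 at an unadjusted p under 0.05), 1 without PD24 replicate 1, 4 without PD24 replicate 3, and 2 lower without PD30 replicate 1. DESeq2 called 0 higher (3 at an unadjusted p under 0.05) and 2 lower.

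The surroundings of the members were examined because reads that run on from an upstream gene, or that come from the introns of a host gene, can be counted for a silent gene. Whether the reads of any member came from a neighbour was not tested, and the levels given below do not decide it. Of the 100 genes, 95 could be placed on GRCh37. A gene ended within 5 kb upstream on the same strand in 18 of them (18.9%), against 12.7% of 22049 placed genes and 12.5% of 14800 placed genes with 10 counts or more in every Nutlin library. In 6 of the 18 that upstream gene was itself higher in Nutlin by more than 1 on the log2 scale (6.32%, against 1.26% and 1.36%). Within 100 kb there were 16 such members (16.8%, against 6.95% and 7.1%).

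**Figure D3:**
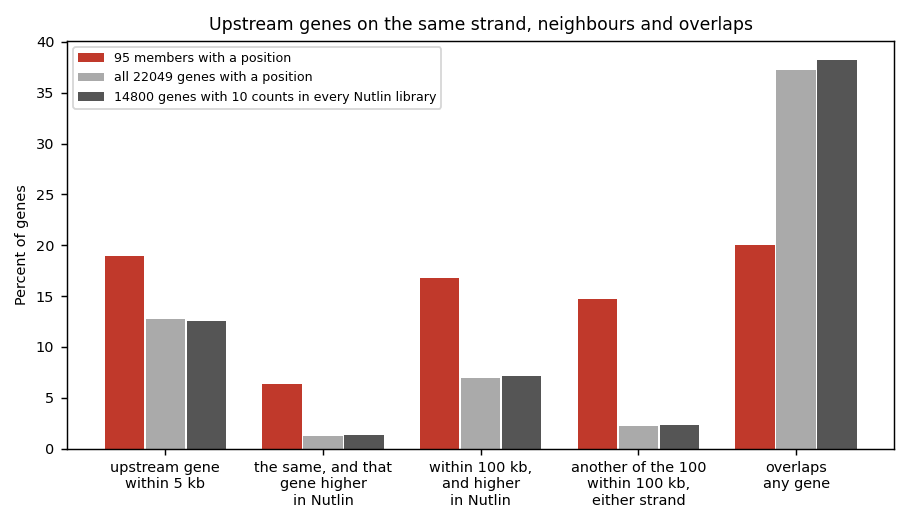
Percent of genes (bars from 0) with each kind of neighbour, for the 95 members with a position (red), all 22049 placed genes (light grey) and the 14800 placed genes with 10 counts or more in every Nutlin library (dark grey); higher in Nutlin means a log2 difference over 1 from DMSO. The red bars are higher for upstream genes and for another of the 100 genes within 100 kb (14.7%, against 2.19% and 2.3%), and lower for overlaps (20%, against 37.2% and 38.2%).

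Of the 6 upstream genes, only RGS12 was abundant. It lies 2.05 kb before HGFAC and rose from 37.4 CPM in DMSO to 106 CPM in Nutlin, and it stood at 119 CPM in N+PD30 and 115 CPM in N+PD24. HGFAC stood at 13.7% ± 2.18 (SD, n = 3) of its Nutlin mean in N+PD30 and at 65.4% ± 40.4 in N+PD24. Read-through from RGS12 was not tested. HHATL lies 2.93 kb after CCDC13, which had means of 0.178 CPM in DMSO, 2.02 in Nutlin, 0.663 in N+PD24 and 1.42 in N+PD30. LAD1 lies 3.87 kb after TNNI1 (0.401 CPM in DMSO and 1.17 in Nutlin), and DUOX2 3.19 kb after DUOXA1 (0 and 0.225 CPM). The remaining 2 have another of the 100 genes upstream, TNNT2 with LAD1 at 3.07 kb and TREML1 with TREM2 at 4.16 kb.

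The other 12 upstream genes within 5 kb did not differ by more than 1 upward. The closest were GMPPA, 0.271 kb before ACCN4 (31.5 CPM in DMSO and 31.8 in Nutlin), DAB2, 0.35 kb before C9 (357 and 267 CPM), and DRG2, 0.785 kb before MYO15A (54.8 and 54.9 CPM). C9, by comparison, held 0.182, 0 and 0.0647 CPM in DMSO and 7.41, 9.29 and 7.26 CPM in Nutlin. CCDC71, 1.68 kb before LAMB2P1, was lower in Nutlin (24.6 and 10.5 CPM). The remaining 8 were AARS2 before TCTE1, PES1 before GAL3ST1, ARFGAP1 before COL20A1, RARG before ITGB7, PSMD14 before TBR1, C17orf90 before PDE6G, TBX2 before C17orf82 and MRPL18 before PNLDC1.

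Fewer members overlapped another gene (19 of 95, 20%) than all placed genes did (37.2%). No member lay within the introns of a gene on its own strand (3.41% of all genes), and 5 lay within introns of a gene on the opposite strand (5.26%, against 2.65%). LOC728978 lies in UNC5B, a netrin receptor, which had means of 1.72 CPM in DMSO, 8.49 in Nutlin, 4.21 in PD24, 2.54 in PD30, 12.1 in N+PD24 and 7.62 in N+PD30. The part of UNC5B in the reads of LOC728978 was not tested. SEZ6, a brain membrane protein, lies in PIPOX (0.376 CPM in DMSO and 0.949 in Nutlin) and the olfactory receptor OR52N4 in TRIM5 (52.0 and 80.6 CPM). The testis enzyme LDHAL6B lies in MYO1E (92.1 and 90.3 CPM) and MSTN in C2orf88 (1.15 and 1.10 CPM), hosts that were near equal in both groups. The sources do not state whether the library kit kept the strand, so reads of opposite overlapping genes cannot be told apart here.

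Overlaps on the same strand were found for ZNF605 with CHFR, ANKUB1 with PFN2, SLC13A3 with TP53RK, TBR1 with SLC4A10 and CELA2A with CELA2B. CHFR stood at 6.12 CPM in DMSO, 3.86 in Nutlin and 7.69 in N+PD30. CELA2A and CELA2B are related elastase copies, as are CYP4F2 and CYP4F3 among the cytochromes, and LAMB2P1 and KRT18P55 are pseudogenes of expressed genes. Reads shared between such copies may have been left out or misassigned in the counting. The other overlaps, all on the opposite strand, were FLJ16779 with NKAIN4, TCTE1 with TMEM151B, EVPL with CDK3, PXT1 with KCTD20, C3orf32 with CAV3, LOC723809 with LHFPL3, ITGB7 with ZNF740, BLNK with ZNF518A and OPN1SW with CALU. ANKUB1 also overlaps RNF13 there. ZNF518A stood at 16.9 CPM in DMSO and 10.3 in Nutlin. The part of overlapping genes in the reads of the members was not tested.

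Members also lay near each other, 14 of 95 within 100 kb of another (14.7%, against 2.19% of all placed genes). The 14 genes formed 6 neighbourhoods, and within them the shares often differed. LAD1, TNNT2 and PKP1 lie together on chromosome 1 (chr1:201252580-201369043, GRCh37) and stood at 0.998%, 5.93% and 6.21% of their Nutlin means in N+PD30, and at 41.0%, 34.1% and 124% in N+PD24. TREM2 and TREML1 stood at 42.9% and 21.5% in N+PD30, CTRC and CELA2A at 5.86% and 3.06%, and PXT1 and C6orf222 at 26.1% and 8.42%. C17orf82, 39.1 kb before TBX4, stood at 24.3% and TBX4 at 4.64%. On chromosome 20 COL20A1 and CHRNA4 stood at 4.15% and 3.77%, while FLJ16779 stood at 38.1%. A gene of the p53 target list lay within 100 kb of 5 members (5.26%, against 2.68% of all placed genes), namely KRT8 near KRT78, PHLDA3 near LAD1 and TNNT2, MIR34A near SLC2A5 and TRIM22 near OR52N4.

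The genes with promoters shown above covered both patterns. PURPL held 5.34, 5.83 and 5.34 CPM in Nutlin, 1.72, 2.87 and 3.47 CPM in N+PD24 and 0.708, 0.470 and 0.775 CPM in N+PD30, and its interaction was 1.89 ± 0.47 (SE, limma adjusted p = 0.0188). PADI4 held 1.70, 3.0 and 2.73 CPM in Nutlin, 1.11, 1.43 and 1.88 CPM in N+PD24 and 0.315, 0.370 and 0.339 CPM in N+PD30, with a difference of 1.81 ± 0.28 between the last 2 (SE, limma adjusted p = 0.00177). BLNK held 1.21, 1.27 and 1.03 CPM in Nutlin and 1.18, 1.01 and 0.533 CPM in N+PD30. LCE1E held 1.15, 0.733 and 1.07 CPM in Nutlin and 0.945, 0.370 and 0.726 CPM in N+PD30. N+PD30 lay below Nutlin in PURPL and PADI4 and overlapped it in BLNK and LCE1E. It also lay below Nutlin in ANKUB1, LDHAL6B, MLN and TREML1, the members with a half-site that are not shown. The genes shown were chosen, so their split does not describe members with half-sites.

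At the edge of the ranking, MYO15A, PNLDC1, LINC00202, LOC646268 and C6orf222 were just inside with scores between 3.37 and 3.40, and RET, CD200R1, NBEAP1, ST6GALNAC1 and DCLK3 just outside with scores between 3.33 and 3.37. LDHAL6B and KRT18P55 were the closest inside the DMSO limit, at 0.196 and 0.195 CPM, followed by FCGBP, PURPL and LAMB2P1. ASB15 (0.212 CPM), CCR7 (0.221 CPM), MBP, GPR172B and SERPINF2 were the closest outside it with scores that would have sufficed.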

How the data were processed

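RNA of SJSA-1 cells was sequenced in 18 libraries, whose titles give their group and replicate number. Per the study's methods, the authors mapped reads to hg19 with TopHat and Bowtie2, counted them per gene symbol with HTSeq 0.6.0 in the reverse strand setting, and worked on biological triplicates. The authors deposited whole-number counts for DMSO, Nutlin, PD24, PD30 and N+PD30, in files named as variance-stabilized. For N+PD24 the authors deposited a signal in which each library's counts had been divided by a single factor. Multiplied back, 100% of its values were whole within 0.05. The authors' comparison of Nutlin with DMSO and tables of normalized values were not used. Doses are those of the labels.

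The following was computed here with Python 3.11.15, R 4.3.3, edgeR 4.0.16, limma 3.58.1 and DESeq2 1.42.0. CPM were taken over the total counts, 12704845 to 40231041 per library. Genes were filtered by edgeR's filterByExpr over all 18 libraries, which left 16461 genes and all 100 members, so that members passed through their Nutlin libraries. Contrasts of counts used edgeR's quasi-likelihood test with TMM, and contrasts with N+PD24 used limma with an intensity trend on log2(CPM + 0.1), where fold changes of low genes are understated. Calls needed a Benjamini-Hochberg adjusted p under 0.05 over all genes tested and an absolute log2 value over 1. The pairwise tests were tried first on simulated counts, in which the changed genes had reference means over 1 CPM. Most members lay lower in the reference groups, so that trial does not speak for them. The interaction was not simulated. The members, lists and named genes were chosen with earlier results of these data known. Named are members on the p53 list, the 20 highest in Nutlin, the 10 highest and lowest shares of the Nutlin mean, the 10 largest called changes per contrast, those at the limits of the rule, those with close or overlapping neighbours and those with paired half-sites. Other members are named as examples of a role, chosen after their values were seen.

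Same-numbered libraries deviated together in N+PD30 and PD30 (correlations 0.20, 0.32 and 0.65 over 13559 genes), N+PD24 and PD24 (0.42, 0.48 and 0.20) and PD24 and PD30 (0.31, 0.55 and 0.29). The numbers were therefore taken to pair these libraries. The main tests did not use the pairing, and fits with the replicate number as a block are given among the alternatives. Symbols were matched to GENCODE on GRCh37, which placed 22049 of 23368 gene rows (94.4%), and promoters came from RefSeq.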

Additional observations from a re-analysis of the deposited data

Results flagged for a closer look

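The response to Nutlin differed between the Palbociclib schedules in 59 of the 100 members by the interaction term over 12 libraries (limma, Benjamini-Hochberg adjusted p under 0.05 and a log2 interaction over 1), in each case with the larger Nutlin difference after removal. This is a difference between groups under the same contrast. The 10 largest interactions were ZNF300P1 (4.91), TRIM55 (4.65), ZNF605 (4.51), IGFL3 (4.37), SHISA7 (4.07), PKP1 (3.98), C15orf54 (3.79), KIAA1045 (3.77), C8orf47 (3.74) and C9 (3.54), all on the log2(CPM + 0.1) scale. No call was made without replicate 2 by limma, where 61 members had an unadjusted p under 0.05 with the larger difference after removal, and edgeR on the recovered reads called 34. The S phase and E2F target list summed to 294 to 432 CPM in PD24 and 207 to 252 CPM in PD30, and its part in the difference was not tested.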

How the results depend on the processing

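Among the largest called changes, up to 10 per contrast, none was reversed under the alternatives run, with 455 values on the same side of the threshold and 43 no longer past it, but several counts moved. With a pseudocount of 1, limma called 54 members higher in N+PD24 against PD24, 32 in N+PD24 against N+PD30 and 34 in the interaction, and edgeR on the recovered reads called 34 in the interaction. DESeq2 called 9 members higher in N+PD30 against PD30 and gave no adjusted p for 91. In PD24 against PD30 it called 0 higher (3 at an unadjusted p under 0.05) and 2 lower with no adjusted p for 54, and edgeR without a filter on low counts called 2 lower. The causes were not tested. Leaving out 1 replicate gave 15 to 34 members higher in N+PD30 against PD30, 94 to 99 in N+PD24 against PD24, 55 to 72 in N+PD24 against N+PD30, 0 to 4 higher and 2 to 3 lower in PD24 against PD30, and 0 to 45 in the interaction (limma, where 61 members had an unadjusted p under 0.05 in the fit with 0 calls). It gave 95 to 98 members with N+PD30 below Nutlin and 0 to 1 above, 62 to 70 with N+PD24 below and 2 to 5 above, 29 to 39 with PD30 above DMSO and 1 to 5 below, and 22 to 32 with PD24 above and 2 to 5 below. Such counts of separated groups cannot fall when a library is left out, and the shares over all genes were not recounted. Without 1 library of N+PD30 or of N+PD24, the median share of the Nutlin mean ranged from 9.78 to 11.5% in N+PD30 and from 50.0 to 57.1% in N+PD24. The median shares under TMM-scaled CPM were 10.6% and 57.1%. Of the 100 genes, 64 stayed under a pseudocount of 0.01 in the ranking, 80 under 1, 91 and 85 under DMSO limits of 0.1 and 0.5 CPM, 99 with TMM-scaled CPM, and 87 to 94 without 1 library. An upstream gene stood within 20 kb of 44 members and within 100 kb of 79, and was higher in Nutlin for 11 and 16. With the replicate block the paired contrasts called 36 (N+PD30 against PD30), 98 (N+PD24 against PD24), and 2 higher and 5 lower (PD24 against PD30), and the interaction called 63. TBR1 and LOC723809 lost their calls in the blocked PD24 contrast, and none of the other largest changes lost its call under the block. In N+PD24 against N+PD30 the correlations were uneven (0.05, 0.12 and 0.35), so that pairing was not settled there, and the block gave 66. Depth limits the silent groups, where 1 read is worth up to 0.0787 CPM. The leave-one-out fits of the groups without a test, the window of 5 kb around gene starts and the set of genes with 10 counts in every Nutlin library were added after seeing the data.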
